A study of Homo sapiens with 12 samples.

Results

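The glycolysis and hypoxia response genes are 40 genes given as a list of symbols: 19 enzymes of the glycolytic pathway with lactate dehydrogenase, 3 carriers of glucose and lactate, 3 regulators of glycolytic flux, the oxygen-regulated transcription factor HIF1A with 2 of its oxygen sensors, and 12 other genes known as hypoxia targets. All 40 symbols were found among the 20042 genes listed in each library, of which 19040 held values. The members were chosen on measured values, since the list was picked in part because several of its genes fell with F-53B in these same libraries. The changes against DMSO under F-53B are therefore given as a description, with no p-value.

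RNA was measured in 12 libraries of H9, a human embryonic stem cell line, taken through cardiac differentiation in culture. There were 6 groups of 2 libraries by the labels: cells given the solvent DMSO, F-53B at 60 µM or PFOS at 60 µM, collected at day 8 or at day 12, with both toxicants in the medium from day 0. Both compounds are fluorinated sulfonates, and F-53B carries a chlorine and an ether oxygen that PFOS lacks. The series asks how the compounds act on the developing heart, and all groups share the H9 line and the differentiation protocol. Nothing in the labels says that replicates 1 and 2 came from separate cultures, so a p-value here measures only the spread between these libraries, which may be technical. In bulk RNA, fewer cells of a type and less RNA per cell cannot be told apart.

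Glycolysis splits glucose into pyruvate in the cytosol, and lactate dehydrogenase turns pyruvate into lactate when it is not burned in mitochondria. Pluripotent stem cells and the early heart rely on it, and maturing cardiomyocytes turn toward mitochondrial oxidation. When oxygen is low, the prolyl hydroxylases EGLN1 and EGLN3 no longer mark HIF1A for breakdown, and the protein then switches on glycolytic enzymes, glucose carriers, VEGFA, BNIP3 and other targets, so HIF activity is set mostly by the protein and not by the HIF1A transcript.

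HIF binds a short core that reads ACGTG or GCGTG. The windows below are shown because they hold the ACGTG core before the start sites of 7 members with differing responses. Each is 30 bases from the RefSeq promoter table of build GRCh38.p14, 5′ to 3′ on the gene's strand, with capitals marking ACGTG or its reverse complement CACGT (overlapping matches make CACGTG).
LDHA, chr11:18394470-18394499, plus strand: gactcaCACGTGggttcccgCACGTccgcc
PGK1, chrX:78104043-78104072, plus strand: cggACGTGacaaacggaagccgCACGTctc
BNIP3, chr10:131982040-131982069, minus strand: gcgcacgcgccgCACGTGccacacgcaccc
ANKRD37, chr4:185396676-185396705, plus strand: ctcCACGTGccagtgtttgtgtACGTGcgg
GAPDH, chr12:6535171-6535200, plus strand: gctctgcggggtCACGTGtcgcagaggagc
HK2, chr2:74834066-74834095, plus strand: caatgggcgtgcgCACGTcactgatccgga
DDIT4, chr10:72273786-72273815, plus strand: gagaacgttgcttACGTGcgcccggagtcc

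By the GENCODE 29 annotation of GRCh38, the BNIP3 and DDIT4 windows lie upstream of the gene, those of PGK1 and GAPDH in an intron of a longer transcript, and those of LDHA, ANKRD37 and HK2 overlap an exon of the gene. The table held 67 start sites for 36 of the 40 members and none for SLC2A3, VEGFA, BNIP3L and NDRG1. Within 250 bases upstream, ACGTG on either strand was found at 35.8% of the members' starts and at 21.6% of the 16614 starts of all genes tested. GCGTG was found at 35.8% of the members' starts and 42.2% of all, and CACGTG, a part of the ACGTG matches, at 11.9% and 7.92%. Genes differ in their number of starts, and counted per gene the shares were others. ACGTG was then found in 58.3% of members and 28.1% of all genes with an entry. GCGTG was found in 55.6% and 52.3%, and CACGTG in 22.2% and 10.9%. A match is a description of letters and says nothing of binding.

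Values are FPKM, fragment counts scaled for transcript length and library size, so levels of different genes may be set side by side. Replicate 1 is always given first, and where groups are not named again the order is DMSO, F-53B, PFOS. FPKM totals ran from 389249 to 439918 per library, depth is unknown, and 12915 to 13292 genes reached 1 FPKM. Of the 40 members, 39 passed the filter of at least 1 FPKM in at least 2 libraries, 37 of them with 1 FPKM or more in every library. CA9, a carbonic anhydrase that is a classic hypoxia marker, did not pass: it lay between 0.22 and 0.55 FPKM in all libraries. ADM stayed under 1 FPKM in the day 8 F-53B libraries and ANKRD37 in all F-53B libraries. TNNT2, cardiac troponin T, read 1246 and 1473 FPKM with DMSO at day 8 and 143 and 137 with F-53B. Of the cardiomyocyte markers only MYH7, a myosin heavy chain, was under 1 FPKM in both day 8 F-53B libraries, at 0.16 and 0.08. NKX2-5 (0.88 and 1.06) and MYBPC3 (1.73 and 0.99) were under it in 1 of these libraries each. The others stayed above it, such as MYL7 at 978 and 935.

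The members' levels differed between replicates in 3 of the 6 groups, so the values below are given for each library. In the day 8 DMSO pair, 36 of 39 members were higher in replicate 1, by a median of 0.44 on the log2(FPKM + 1) scale. Of these members 14 (35.9%) differed more than 1.5-fold on that scale, against 1.43% of the 14080 genes tested. In the day 8 PFOS pair all 39 members were lower in replicate 1, by a median of 0.40, and 13 (33.3%) differed more than 1.5-fold against 1.84% of genes. In the day 12 F-53B pair 34 members were higher in replicate 1, by a median of 0.38, and 12 (30.8%) differed more than 1.5-fold against 3.53% of genes. On the same scale no member differed that much in the other 3 groups, and the medians were 0.04 for day 8 F-53B, -0.06 for day 12 DMSO and 0.05 for day 12 PFOS.

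The 16 cardiomyocyte markers did not move with the members in the same way in each of these pairs. In the day 8 DMSO pair 14 of the 16 were lower in replicate 1, where the members were higher, with a median of -0.32. In the day 8 PFOS pair all 16 were lower in replicate 1 with the members (median -0.63), and in the day 12 F-53B pair all 16 were higher (median 1.26). Of 32 other hypoxia targets outside the member list, 28 were higher in replicate 1 with DMSO at day 8 (median 0.29), and 24 were lower there with PFOS at day 8 (median -0.20). With F-53B at day 12, 16 were higher and 16 lower (median 0.0015). The markers' part in the members' differences was not tested.

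**Figure D1:**
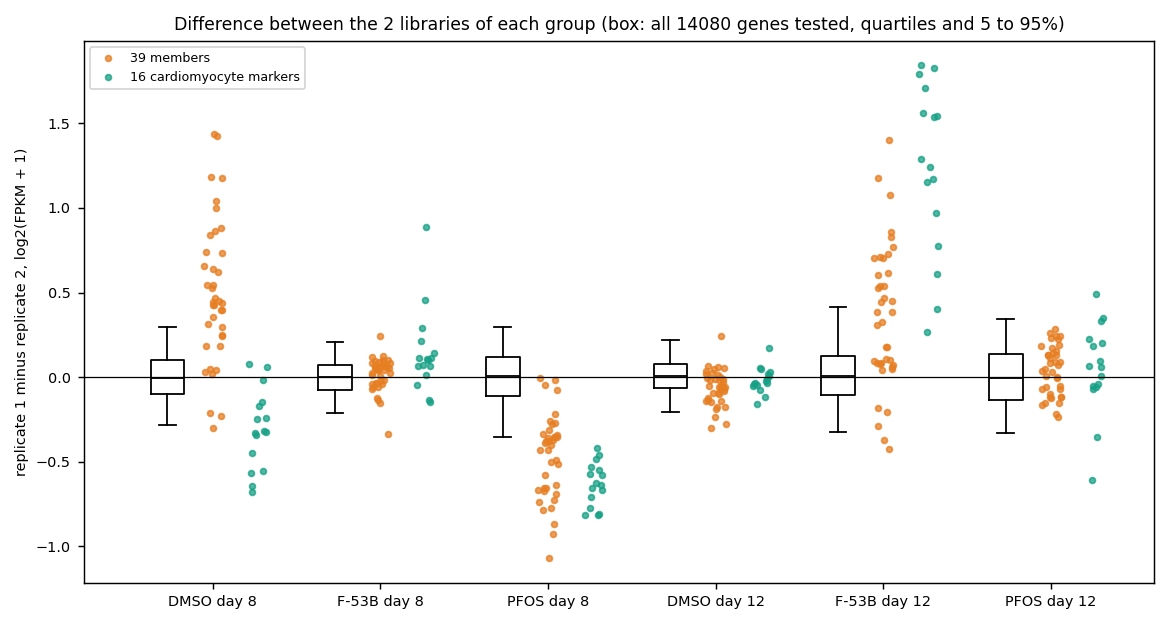
Difference between replicate 1 and replicate 2 on the log2(FPKM + 1) scale (vertical axis) in each of the 6 groups (horizontal axis): orange points are the 39 members, green points the 16 cardiomyocyte markers, and the box all 14080 genes tested (line at the median, box at the quartiles, whiskers at 5 and 95%). The members lie mostly above 0 with DMSO at day 8 while most green points lie below it; both lie below 0 with PFOS at day 8 and above 0 for most members with F-53B at day 12.

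With F-53B most of the members were lower than with DMSO on both days, and with PFOS few passed the test against DMSO. As a description of the values that chose the list, 33 of 39 members lay past the threshold as lower with F-53B at day 8 and none as higher, where 44% of all 14080 genes lay past it in either direction. The members' median log2 change was -1.08, beside 0.02 over all genes. At day 12, 30 lay past it as lower and 1, PFKFB3, as higher, where 56.2% of all genes did, with medians of -1.31 and 0.00123. These counts include the values that chose the members, and nothing is read from them. The 6 members that did not pass at day 8 were SLC2A1, HK2, PFKL, PFKFB3, P4HA2 and NDRG1. At day 12 they were SLC2A1, HK2, PFKL, BNIP3L, P4HA1, P4HA2, NDRG1 and DDIT4.

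Against the same DMSO libraries, no member passed with PFOS at day 8 and 2 passed at day 12, both lower. At day 8, where 6.77% of all genes passed, 5 members had an unadjusted p under 0.05 in limma, and 33 of the 39 changes lay below 0 (median -0.17, beside 0.03 over all genes). The sign of that median rested on single libraries: it was 0.10 without DMSO day 8 replicate 1, 0.05 without PFOS day 8 replicate 1, -0.45 without DMSO day 8 replicate 2 and -0.40 without PFOS day 8 replicate 2. At day 12, 12.3% of all genes passed, and the members' median was 0.05, beside 0.02, and ran from -0.000609 to 0.0847 with 1 library left out. The 2 members were SLC2A3 and HIF1A, a share of 5.13%. The groups did not overlap for 7 of 39 members at day 8, all lower with PFOS, where 53.2% of all genes did not overlap. At day 12 they did not overlap for 27 of 39, 16 higher and 11 lower, where the share of all genes was 56.8%. Leaving out PFOS day 8 replicate 2 raised the day 8 count to 2, and leaving out DMSO day 8 replicate 2 raised it to 1. The day 12 count was 0 without either DMSO day 12 library and without PFOS day 12 replicate 1. The counts with PFOS and with F-53B rest on shared DMSO libraries. No member passed the test of a difference in the PFOS effect between days (0 of 39 in limma, 1 with an unadjusted p under 0.05, DDIT4, where 1.41% of all genes passed), which does not show that the effects were alike. Leaving out DMSO day 8 replicate 2 raised that count to 2.

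**Figure D2:**
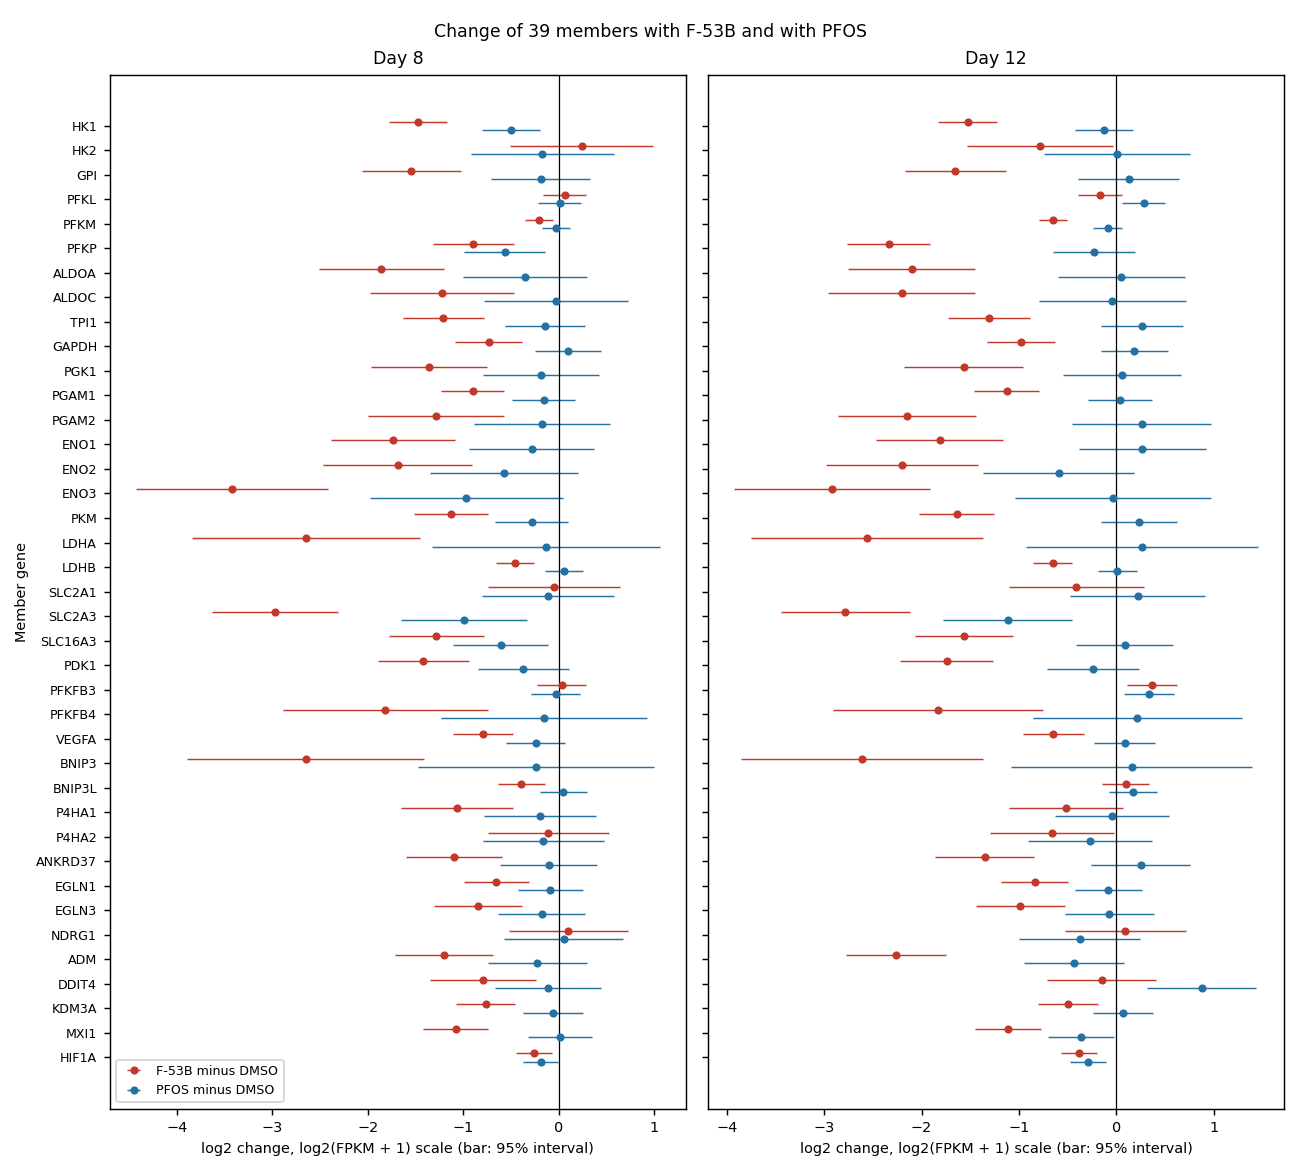
Log2 change of each of 39 members (vertical axis) against DMSO at day 8 (left) and day 12 (right) on the log2(FPKM + 1) scale (horizontal axis), in red for F-53B and blue for PFOS, with 95% intervals from the fit to all 12 libraries. Most red points lie left of 0, as the choice of members favours, and most blue intervals hold 0.

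Among the carriers, SLC2A3 was the member with the largest difference from DMSO under PFOS. It encodes GLUT3, a glucose carrier with high affinity, and lies on chromosome 12 from 7919230 to 7936275 (GRCh38). At day 8 its libraries read 225 and 170.2 FPKM with DMSO, 25.1 and 23.0 with F-53B, and 74.2 and 129 with PFOS. At day 12 they read 121 and 117 with DMSO, 21.2 and 12.7 with F-53B, and 53.2 and 55.8 with PFOS. The groups did not overlap on either day, and F-53B was lowest both times. The log2 change with F-53B was -2.97 (SE 0.29) at day 8 and -2.79 (SE 0.29) at day 12. With PFOS it was -0.99 (SE 0.29) at day 8, which did not pass (adjusted p = 0.083 in limma). At day 12 SLC2A3 fell with PFOS, to a mean 2.19-fold lower (log2 change -1.11, SE 0.29, adjusted p = 0.0423). That call did not hold with a replicate block or without any 1 of the 4 libraries compared. Its log2 change then ranged from -1.15 to -1.08, and its adjusted p over 14 alternatives from 7.68e-05 to 0.178.

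SLC2A1, which encodes GLUT1, the basal glucose carrier of most dividing cells (chromosome 1, 42925375 to 42959176), followed another course. At day 8 it read 209.96 and 101.5 FPKM with DMSO, 139 and 143 with F-53B, and 119.7 and 153 with PFOS. At day 12 it read 57.2 and 64.8 with DMSO, 39.95 and 51.9 with F-53B, and 73.2 and 69.0 with PFOS. The day 8 groups overlapped, and every day 12 library lay below every day 8 library. SLC2A1 fell from day 8 to day 12 with DMSO (log2 change -1.25, SE 0.30, adjusted p = 0.0128 in limma) and with PFOS (-0.92, SE 0.30, adjusted p = 0.0415). Its adjusted p ranged over the alternatives from 6.06e-05 to 0.145 with DMSO and from 0.000627 to 0.182 with PFOS. The DMSO call was lost without DMSO day 12 replicate 1 and in a fit of the compared libraries alone. The PFOS call was lost with the replicate block (adjusted p = 0.0656 in limma). It was also lost without any 1 of the 4 PFOS libraries, at log2 changes from -1.10 to -0.74.

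SLC16A3, which encodes the lactate exporter MCT4 (chromosome 17, 82228397 to 82261129), read 131 and 90.4 FPKM with DMSO at day 8, 43.3 and 45.0 with F-53B, and 62.2 and 81.3 with PFOS. The day 12 values were 54.5 and 55.2 with DMSO, 22.4 and 14.2 with F-53B, and 62.2 and 54.6 with PFOS. The PFOS libraries lay between the other groups at day 8 and overlapped DMSO at day 12. SLC16A3 fell over time with DMSO (log2 change -0.98, SE 0.22, adjusted p = 0.00753 in limma, at most 0.0479 over 14 alternatives). With PFOS its change over time was -0.28 (SE 0.22, adjusted p = 0.347), and the difference between the courses did not pass (0.69, SE 0.31, adjusted p = 0.316). SLC2A3 held 51.7% and 62.6% of the summed FPKM of SLC2A1 and SLC2A3 with DMSO at day 8, 15.3% and 13.8% with F-53B, and 38.3% and 45.6% with PFOS. At day 12 the shares were 68.0% and 64.3%, 34.7% and 19.6%, and 42.1% and 44.7% in the same order.

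**Figure D3:**
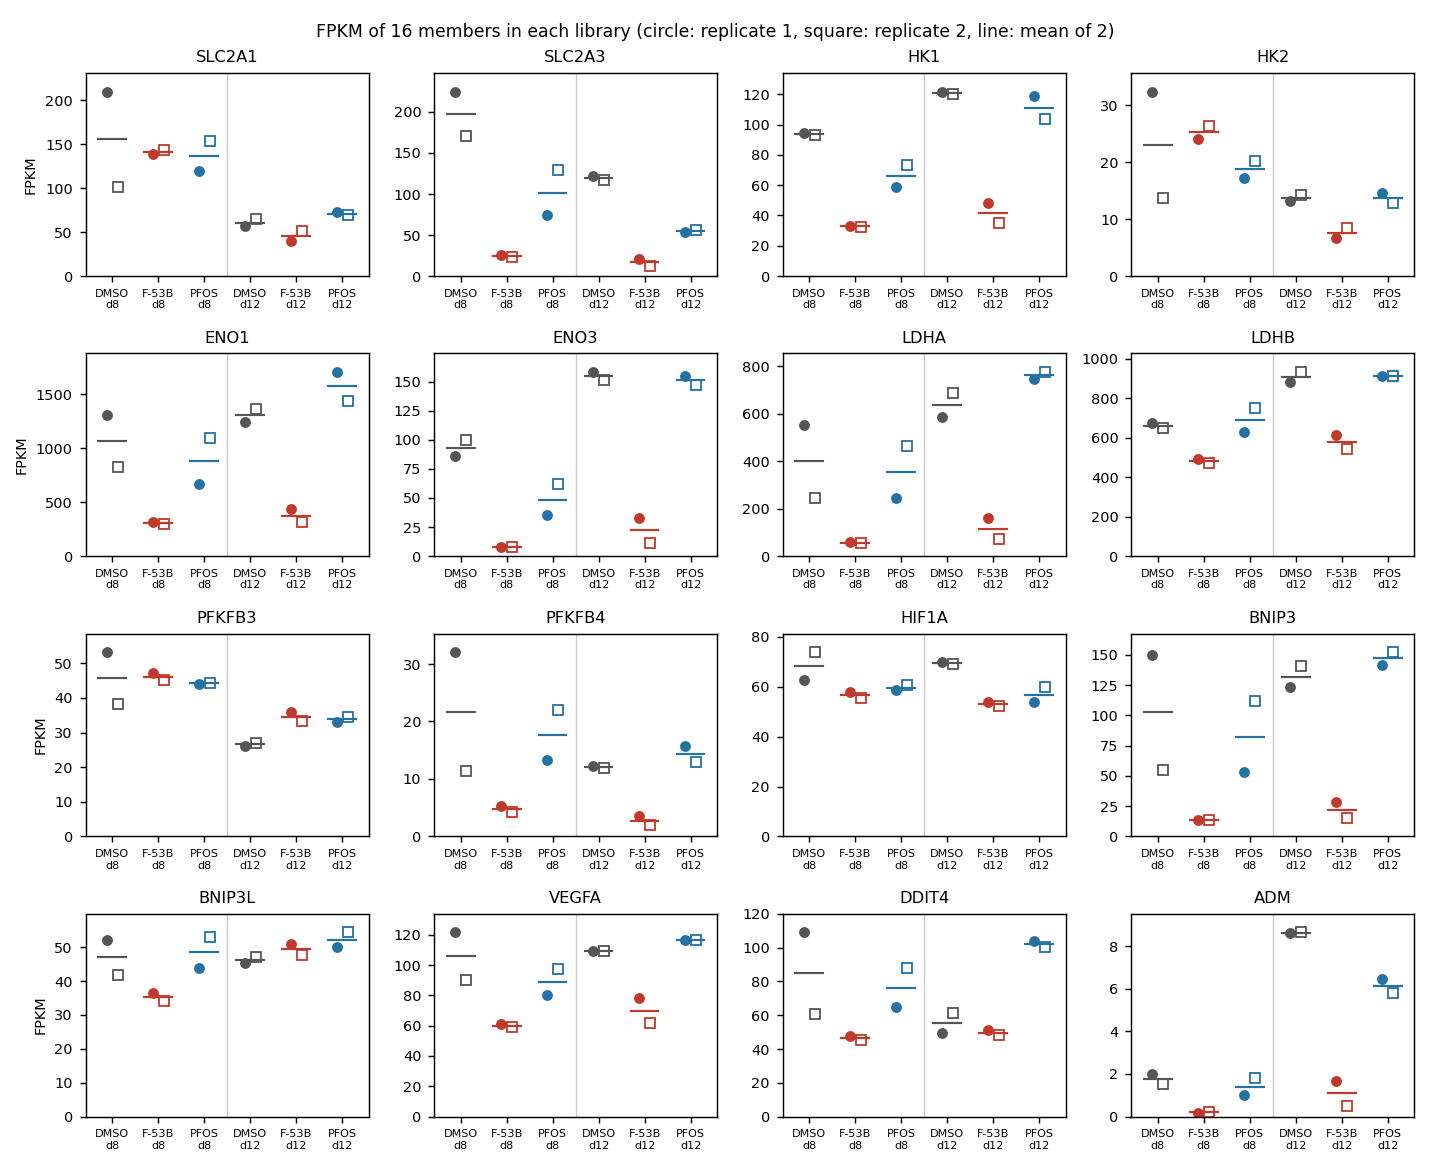
FPKM (vertical axes, from 0) of 16 members in each library by group (horizontal axes, d8 and d12 for day 8 and day 12); circles are replicate 1, squares replicate 2 and lines the mean of the 2. LDHA and BNIP3 are lowest in the F-53B libraries on both days, SLC2A1 and PFKFB3 are lower at day 12 than at day 8, and SLC2A1, HK2, LDHA and BNIP3 spread widely between the day 8 DMSO replicates.

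Of the 19 enzymes, 17 lay past the threshold as lower with F-53B at each day, where 44% of all genes at day 8 and 56.2% at day 12 lay past it in either direction. These values helped choose the members, and nothing is read from the count. The exceptions at both days were HK2 and PFKL, and the enzymes' median log2 change was -1.22 at day 8 and -1.64 at day 12. The enzymes' summed FPKM was 2.02% and 1.56% of the library total with DMSO at day 8, 0.885% and 0.873% with F-53B, and 1.41% and 1.91% with PFOS. At day 12 it was 2.25% and 2.36%, 1.09% and 0.820%, and 2.59% and 2.40%. With F-53B at day 8 the cardiomyocyte markers' share was lower too, at 0.347% and 0.337% against 2.14% and 2.73% with DMSO. It was 1.18% and 1.80% with PFOS. At day 12 their share was 3.67% and 3.67%, 0.867% and 0.382%, and 3.27% and 3.07%. With F-53B both shares lay below DMSO on both days. With PFOS at day 12 the enzymes' share lay above DMSO and the markers' share below it. Within the day 8 DMSO pair the enzymes' share was higher in replicate 1 and the markers' share lower. Within the day 8 PFOS pair both shares were lower in replicate 1, and within the day 12 F-53B pair both were higher. All 16 of these markers passed as lower with F-53B on both days (median log2 change -3.52 and -2.99), and their part in the enzymes' values was not tested.

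The hexokinases, which trap glucose as glucose 6-phosphate, differed from each other. HK1, the housekeeping form, read 94.2 and 92.8 FPKM with DMSO at day 8, 33.3 and 32.7 with F-53B and 59.0 and 73.5 with PFOS. HK2, the inducible form (chromosome 2, 74833981 to 74893359), read 32.4 and 13.7 with DMSO, 24.0 and 26.4 with F-53B and 17.3 and 20.2 with PFOS. At day 12 HK2 read 13.2 and 14.3, 6.76 and 8.47, and 14.7 and 12.9. The F-53B libraries lay within the DMSO range for HK2 at day 8 and below it at day 12, where the log2 change was -0.78 (SE 0.32). HK2 made up 25.6% and 12.9% of the hexokinase FPKM with DMSO at day 8, 41.9% and 44.7% with F-53B, and 22.6% and 21.6% with PFOS. At day 12 its share was 9.81% and 10.6%, 12.2% and 19.4%, and 11.02% and 11.1%.

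Phosphofructokinase, the committed step, has 3 genes that responded unequally. PFKP, the platelet form (chromosome 10, 3066333 to 3137712), read 181 and 177 FPKM with DMSO at day 8, 95.3 and 96.7 with F-53B, and 105 and 138 with PFOS. Levels at day 12 were 216 and 209.98, 52.97 and 32.2, and 178 and 185. PFKP stood below DMSO under F-53B by more at day 12 than at day 8 (log2 change -2.34, SE 0.19, against -0.89, SE 0.19). PFKM, the muscle form, changed by -0.20 (SE 0.07) at day 8 and -0.65 (SE 0.07) at day 12. PFKL, the liver form, changed by 0.06 (SE 0.10) and -0.17 (SE 0.10). With PFOS the changes of these 3 genes lay between -0.57 and 0.28 over both days, and none passed. PFKP held 61.8% and 63.1% of the phosphofructokinase FPKM with DMSO at day 8 and 61.8% and 62.1% at day 12, against 35.6% and 26.1% with F-53B at day 12.

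In the middle of the pathway, aldolase splits the 6-carbon sugar and triose phosphates are then oxidised for ATP. ALDOA (chromosome 16, 30064164 to 30070457) read 784 and 572 FPKM with DMSO at day 8, 186 and 183 with F-53B, and 415 and 659.8 with PFOS. Its day 12 libraries read 871 and 914, 271 and 158, and 953 and 894. PGK1, which makes the first ATP of the pathway (chromosome X, 77910739 to 78129296), read 265 and 169.98 with DMSO at day 8, 84.7 and 79.7 with F-53B, and 144 and 241 with PFOS. Day 12 readings were 282 and 307, 113 and 86.0, and 290.4 and 323. For both genes the F-53B libraries were lowest at each day, and the PFOS libraries overlapped DMSO at each day. The log2 changes with PFOS were -0.35 (SE 0.28) and 0.05 (SE 0.28) for ALDOA and -0.19 (SE 0.27) and 0.06 (SE 0.27) for PGK1.

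GAPDH was the most abundant member in every group. It oxidises glyceraldehyde 3-phosphate and is often used as a reference gene. It read 2431 and 2139.9 FPKM with DMSO at day 8, 1399 and 1346 with F-53B, and 2156 and 2768 with PFOS. At day 12 it read 3149 and 3179.7, 1933 and 1332, and 3646 and 3558. Its mean was 1.67-fold lower with F-53B at day 8 and 1.94-fold lower at day 12. The remaining enzymes of this stretch, GPI, ALDOC, TPI1 and PGAM1, stood 1.88-fold to 3.01-fold lower with F-53B at day 8 and 2.18-fold to 4.94-fold lower at day 12. GAPDH, PGK1, PGAM1, TPI1, ENO1 and LDHA have near-identical pseudogene copies that could share reads, so their levels are less certain than those of single-copy genes.

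The enolases and phosphoglycerate mutases have muscle forms with their own course. ENO3, the muscle enolase (chromosome 17, 4948092 to 4957131), read 86.2 and 99.8 FPKM with DMSO at day 8, 7.76 and 7.71 with F-53B, and 35.7 and 61.7 with PFOS. The day 12 values were 158 and 152, 32.6 and 11.7, and 155 and 147. PGAM2, the muscle mutase (chromosome 7, 44062727 to 44065587), read 12.0 and 15.1 with DMSO at day 8, 4.97 and 4.92 with F-53B, and 10.3 and 13.6 with PFOS. Levels at day 12 were 44.2 and 37.2, 12.6 and 5.45, and 46.7 and 50.9. The log2 change of ENO3 with F-53B was -3.42 (SE 0.43) at day 8 and -2.92 (SE 0.43) at day 12. With PFOS at day 8 it stood 1.91-fold below DMSO with no overlap, which did not pass (log2 change -0.97, SE 0.43, adjusted p = 0.234 in limma), and at day 12 the groups overlapped.

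PGAM2 rose from day 8 to day 12 with DMSO (log2 change 1.52, SE 0.31, adjusted p = 0.0058 in limma) and with PFOS (4.09-fold, 1.96, SE 0.31, adjusted p = 0.00162). Both calls held over all 14 alternatives, with adjusted p at most 0.0418 and 0.0165. With F-53B its change over time was 0.66 (SE 0.31). ENO3 held 6.03% and 10.5% of the enolase FPKM with DMSO at day 8, 2.31% and 2.43% with F-53B, and 5.01% and 5.21% with PFOS. ENO1, the ubiquitous enolase, still read 320.4 and 302 FPKM with F-53B at day 8 against 1306 and 828 with DMSO. ENO2, the neuronal form, read 7.81 and 7.28 against 36.1 and 19.4, and PKM, which makes pyruvate and ATP, 227 and 221 against 546 and 444.

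The lactate dehydrogenase subunits set the fate of pyruvate, and their levels differed in course. LDHA, the muscle-type subunit that favours lactate (chromosome 11, 18394388 to 18408425), read 554 and 245 FPKM with DMSO at day 8, 58.8 and 56.7 with F-53B, and 243 and 464 with PFOS. Its day 12 libraries read 585 and 688, 161 and 70.7, and 748 and 776. The F-53B libraries lay below all others on both days. The DMSO and PFOS libraries overlapped at day 8, and at day 12 both PFOS libraries lay above both DMSO libraries. The log2 change with F-53B was -2.65 (SE 0.51) at day 8 and -2.56 (SE 0.51) at day 12. With PFOS it was -0.13 (SE 0.51, 95% interval -1.33 to 1.06) and 0.26 (SE 0.51, interval -0.93 to 1.46). Both intervals hold 0, and changes within them are not excluded.

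LDHB, the heart-type subunit (chromosome 12, 21635342 to 21757857), read 672 and 650.4 FPKM with DMSO at day 8, 494 and 471 with F-53B, and 629 and 752 with PFOS. Day 12 readings were 880.3 and 933, 613 and 543, and 912 and 911. LDHB was lower with F-53B by -0.45 (SE 0.09) and -0.65 (SE 0.09). LDHB rose over time with DMSO (log2 change 0.45, SE 0.09, adjusted p = 0.00242 in limma, at most 0.03 over 14 alternatives) and with PFOS (0.41, SE 0.09, adjusted p = 0.00459, at most 0.0533). Without PFOS day 8 replicate 1 the PFOS call was lost, at 0.28. LDHA made up 45.2% and 27.3% of the lactate dehydrogenase FPKM with DMSO at day 8, 10.6% and 10.7% with F-53B, and 27.9% and 38.2% with PFOS. At day 12 the shares were 39.9% and 42.4%, 20.8% and 11.5%, and 45.1% and 46.0%.

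**Figure D4:**
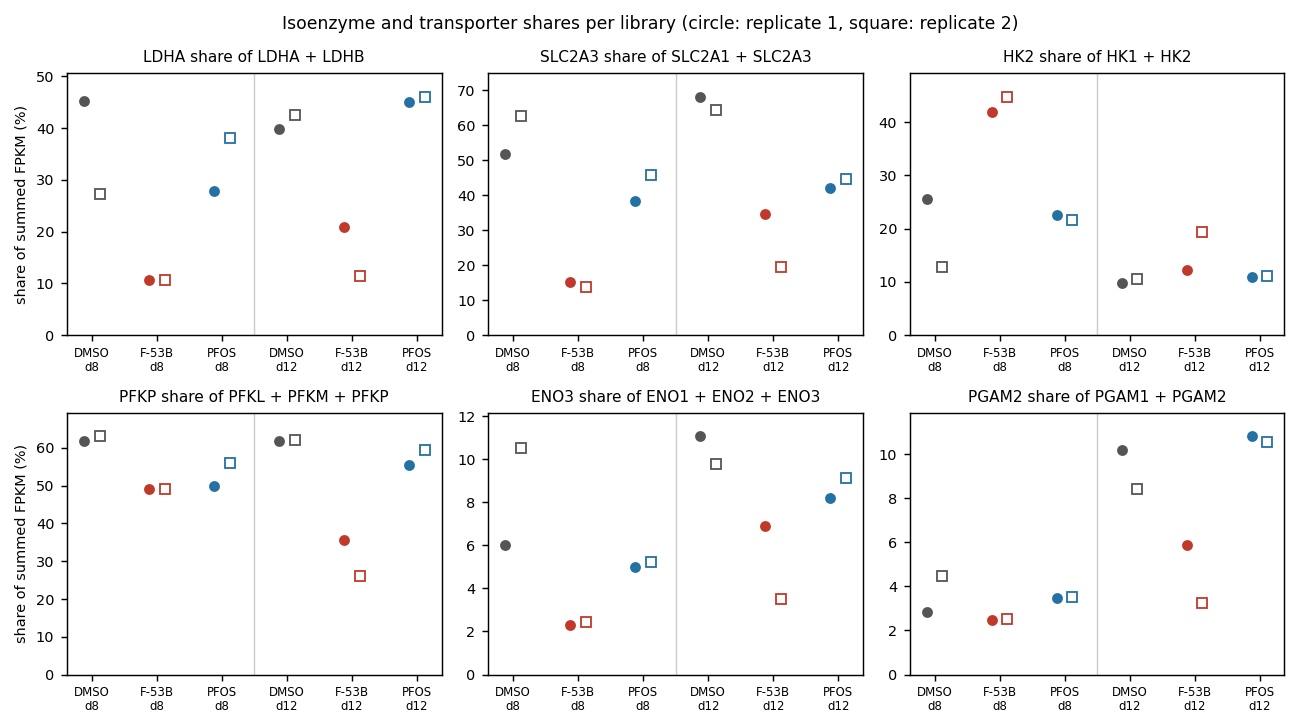
Share in percent (vertical axes, from 0) that 1 isoenzyme or carrier holds of the summed FPKM of its family, per library by group (horizontal axes, d8 and d12 for day 8 and day 12); circles are replicate 1 and squares replicate 2. The LDHA share is between 10.6% and 20.8% in the F-53B libraries and at least 27.3% in the others, and the HK2 share is highest, 41.9% and 44.7%, with F-53B at day 8.

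The 3 regulators of flux did not move together. PFKFB3, which makes the activator of phosphofructokinase (chromosome 10, 6144934 to 6254644), read 53.3 and 38.2 FPKM with DMSO at day 8, 47.1 and 45.3 with F-53B, and 44.1 and 44.3 with PFOS. At day 12 it read 26.3 and 26.9, 35.8 and 33.4, and 33.0 and 34.6. Both toxicant groups lay within the DMSO range at day 8 and above DMSO at day 12. The log2 change at day 12 was 0.37 (SE 0.12) with F-53B and 0.34 (SE 0.12) with PFOS, the latter short of the threshold (adjusted p = 0.0881 in limma). PFKFB3 fell over time with DMSO (log2 change -0.74, SE 0.12, adjusted p = 0.000516, at most 0.00895 over 14 alternatives) and with PFOS (-0.38, SE 0.12, adjusted p = 0.0251, up to 0.11). The PFOS call was lost without any 1 of the 4 PFOS libraries, at log2 changes from -0.41 to -0.34.

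PDK1, a kinase that shuts pyruvate dehydrogenase and so keeps pyruvate out of mitochondria (chromosome 2, 172555373 to 172608669), read 229 and 201 FPKM with DMSO at day 8, 82.4 and 76.7 with F-53B, and 142 and 192 with PFOS. The day 12 values were 225 and 234, 87.1 and 52.8, and 180.2 and 209. Both toxicant groups lay below DMSO on both days, F-53B by -1.42 and -1.74 (SE 0.21), and PFOS by -0.37 and -0.24 (SE 0.21), which did not pass (adjusted p = 0.335 and 0.512 in limma). PFKFB4, a relative of PFKFB3, read 32.1 and 11.3 with DMSO at day 8, 5.25 and 4.27 with F-53B, and 13.3 and 22.02 with PFOS. Its DMSO replicates at day 8 differed by 2.84-fold.

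HIF1A, the oxygen-regulated subunit itself, showed small differences. The gene lies on chromosome 14 from 61695513 to 61748259. It read 62.9 and 74.0 FPKM with DMSO at day 8, 58.0 and 55.6 with F-53B, and 58.7 and 60.7 with PFOS. Levels at day 12 were 70.0 and 69.2, 54.1 and 52.2, and 53.7 and 59.8. Both toxicant groups lay below DMSO at both days. The log2 change with F-53B was -0.26 and -0.38 (SE 0.09). With PFOS it was -0.19 (SE 0.09, adjusted p = 0.208 in limma) at day 8. At day 12 HIF1A fell with PFOS by 0.29 (SE 0.09, adjusted p = 0.0454). The call was lost in 7 of 14 alternatives, with adjusted p up to 0.216. It was lost without either DMSO day 12 library (log2 changes -0.28 and -0.30), without PFOS day 12 replicate 1 (-0.22), with the replicate block, without a filter, without the trend and robust steps, and in a fit of the compared libraries alone. Over time HIF1A changed by 0.03 with DMSO, -0.07 with PFOS and -0.10 with F-53B (SE 0.09 each).

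EGLN1 and EGLN3, the oxygen sensors, are themselves hypoxia targets. EGLN1 read 19.8 and 13.3 FPKM with DMSO at day 8 and 9.50 and 10.4 with F-53B, and EGLN3 12.9 and 8.51 against 5.27 and 5.53. Their log2 changes with F-53B lay between -0.98 and -0.65 over both days, and those with PFOS between -0.18 and -0.07.

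Among the hypoxia targets, BNIP3 had a log2 change with F-53B of -2.65 (SE 0.53) at day 8 and -2.61 (SE 0.53) at day 12. BNIP3 starts mitophagy, the removal of mitochondria, and lies on chromosome 10 from 131966455 to 131982013. It read 149.9 and 54.8 FPKM with DMSO at day 8, 13.4 and 13.8 with F-53B, and 52.8 and 112 with PFOS. Its day 12 libraries read 123 and 141, 28.2 and 15.1, and 142 and 152. F-53B was below every other library on both days, 7.52-fold under the DMSO mean at day 8 and 6.10-fold at day 12. The DMSO pair at day 8 itself spread 2.73-fold. With PFOS the log2 change was -0.24 (SE 0.53, 95% interval -1.48 to 1.01) at day 8 and 0.16 (SE 0.53, interval -1.08 to 1.40) at day 12. BNIP3L, its relative with the same role, read 52.2 and 41.8 with DMSO at day 8 and 36.6 and 34.2 with F-53B. Day 12 readings were 45.2 and 47.1 with DMSO and 51.0 and 47.7 with F-53B.

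VEGFA, the growth factor of blood vessels (chromosome 6, 43770184 to 43786487), read 122 and 90.2 FPKM with DMSO at day 8, 60.9 and 59.1 with F-53B, and 80.3 and 97.5 with PFOS. At day 12 it read 109 and 109, 77.9 and 61.9, and 116 and 117. The F-53B libraries lay below the others on both days (log2 change -0.79 and -0.65, SE 0.14), and PFOS overlapped DMSO at day 8 only. VEGFA rose over time with PFOS (log2 change 0.39, SE 0.14, adjusted p = 0.048 in limma), a call lost in 8 of 14 alternatives, with adjusted p from 0.0324 to 0.288. Without PFOS day 8 replicate 1 the change was 0.25, and it was 0.39 without either day 12 library, each time short of the threshold.

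DDIT4, also called REDD1, restrains mTOR under low oxygen and other stress (chromosome 10, 72273920 to 72276036). It read 109 and 60.6 FPKM with DMSO at day 8, 47.6 and 45.5 with F-53B, and 64.9 and 87.9 with PFOS. The day 12 values were 49.7 and 61.5 with DMSO, 51.0 and 48.4 with F-53B, and 104 and 100.7 with PFOS. The day 12 PFOS libraries stood apart from both other groups, at 1.84 times the DMSO mean. The log2 change was 0.88 (SE 0.24, 95% interval 0.32 to 1.43) and its adjusted p 0.0505 in limma, just short of the threshold. F-53B at day 12 overlapped DMSO (-0.15, SE 0.24).

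P4HA1, which hydroxylates collagen prolines (chromosome 10, 73007217 to 73096974), read 80.8 and 43.4 FPKM with DMSO at day 8, 28.6 and 27.1 with F-53B, and 43.1 and 61.5 with PFOS. Levels at day 12 were 29.1 and 30.3, 21.8 and 19.1, and 29.2 and 28.5. P4HA1 fell over time with DMSO (log2 change -0.97, SE 0.26, adjusted p = 0.0172 in limma, up to 0.116 over 14 alternatives) and with PFOS (-0.82, SE 0.26, adjusted p = 0.0341, up to 0.173). The DMSO call was lost without either day 12 library (-0.94 and -1.003) and in a fit of the compared libraries alone. The PFOS call was lost without day 8 replicate 2 (-0.57), without either day 12 library (-0.83 and -0.80) and with the replicate block. P4HA2, its partner isoform, read 18.7 and 8.82 with DMSO at day 8 and 11.2 and 12.6 with F-53B, so the groups overlapped.

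ADM, the vasodilator peptide adrenomedullin (chromosome 11, 10304680 to 10307397), was low at day 8 and rose later. It read 2.0 and 1.52 FPKM with DMSO at day 8, 0.18 and 0.21 with F-53B, and 0.99 and 1.79 with PFOS. Its day 12 libraries read 8.61 and 8.67, 1.68 and 0.51, and 6.47 and 5.82. ADM rose over time with DMSO (4.91-fold, log2 change 1.81, SE 0.23, adjusted p = 0.000161 in limma) and with PFOS (4.42-fold, 1.60, SE 0.23, adjusted p = 0.000375). Both calls held over all 14 alternatives, with adjusted p at most 0.00253 and 0.00616. The F-53B libraries lay below the others on both days.

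NDRG1, a stress-response gene, overlapped between F-53B and DMSO on both days (log2 change 0.10, 95% interval -0.52 to 0.72, and 0.09, interval -0.53 to 0.72). It read 22.2 and 13.0 FPKM with DMSO at day 8, 18.1 and 18.5 with F-53B, and 13.9 and 22.4 with PFOS. Day 12 readings were 10.9 and 11.7, 10.3 and 14.2, and 9.25 and 7.78. NDRG1 fell over time with PFOS (log2 change -0.98, SE 0.27, adjusted p = 0.0213 in limma, up to 0.106), a call lost without day 8 replicate 2 (-0.65) and without either day 12 library (-1.09 and -0.87).

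KDM3A, a histone demethylase induced by hypoxia (chromosome 2, 86440647 to 86492716), read 22.4 and 16.2 FPKM with DMSO at day 8, 11.1 and 10.6 with F-53B, and 16.2 and 20.7 with PFOS. At day 12 it read 22.8 and 25.1, 17.3 and 15.98, and 24.0 and 26.2. It rose over time with PFOS (log2 change 0.44, SE 0.14, adjusted p = 0.0302 in limma, up to 0.229), a call lost without day 8 replicate 1 (0.27) and without either day 12 library (0.49 and 0.38). MXI1, an antagonist of MYC, and ANKRD37, a gene of unsettled function, stood 2.34-fold and 4.93-fold lower with F-53B at day 8, ANKRD37 at under 1 FPKM.

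The course from day 8 to day 12 with PFOS compares only libraries that did not help choose the members. Its SE and calls still rest on a spread estimated from all 12 libraries. There 15 of 39 members rose and 4 fell (48.7%), where 39.2% of all genes passed, and the members' median log2 change was 0.41, beside 0.01 over all genes. That median was 0.20 without day 8 PFOS replicate 1 and 0.58 without day 8 PFOS replicate 2. Of the 19 enzymes 12 rose and none fell (median 0.71). SLC2A1, PFKFB3, P4HA1 and NDRG1 fell. The enzymes that rose were HK1, GPI, PFKL, PFKM, PFKP, TPI1, GAPDH, PGAM2, ENO1, ENO3, PKM and LDHB, and the other members that rose were VEGFA, ADM and KDM3A. ENO3 rose 3.10-fold (log2 change 1.66, SE 0.43, adjusted p = 0.0193 in limma). LDHA and BNIP3 had larger changes than most of these, 1.18 (SE 0.51) and 0.92 (SE 0.53), and did not pass (adjusted p = 0.108 and 0.21).

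In a fit of the compared PFOS libraries alone, 17 members rose and 6 fell, where 29.8% of all genes passed. The count from the main fit depended on single libraries. It was 7 without day 8 PFOS replicate 1, 18 without day 8 replicate 2, 5 without day 12 replicate 1 and 8 without day 12 replicate 2. Without day 12 replicate 1 the calls that held were ADM, HK1, LDHB, PFKL and PGAM2. Only ADM, HK1, PFKL and PGAM2 held over all 14 alternatives. The call of ENO3 was lost without day 8 replicate 1 (log2 change 1.28) and without either day 12 library (1.63 and 1.70). Cardiomyocyte markers moved the same way over these days, with 11 of 16 higher and none lower (median 1.28), and cycling-cell markers the other way, with 8 of 8 lower (median -1.12). Their part in the members' course was not tested.

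With DMSO, whose libraries also enter the F-53B comparisons, 6 of 39 members rose and 4 fell over the same days (25.6%), where 37.7% of all genes passed. The members' median was 0.27, beside 0.03 over all genes, and it was 0.05 without day 8 DMSO replicate 2 and 0.40 without day 8 DMSO replicate 1. PFKL, PFKM, GAPDH, PGAM2, LDHB and ADM rose, and SLC2A1, SLC16A3, PFKFB3 and P4HA1 fell. Without day 12 DMSO replicate 1 the count was 5, namely ADM, LDHB, PFKFB3, PGAM2 and SLC16A3, and those 5 held over all 14 alternatives. The others, GAPDH, P4HA1, PFKL, PFKM and SLC2A1, were lost there. PFKL was also lost without DMSO day 8 replicate 2 (log2 change 0.16) and PFKM likewise (0.25). GAPDH was lost without any 1 of the 4 DMSO libraries (0.38 to 0.56). Over these days with DMSO the cardiomyocyte markers' share of summed FPKM went from 2.14% and 2.73% to 3.67% and 3.67%. That of the cycling-cell markers went from 0.0543% and 0.0541% to 0.0304% and 0.0343%. Their part in the members' course was not tested. Of the 10 members called with DMSO, 9 (90%) were also called with PFOS and in the same direction. That is 47.4% of the 19 called there. The overlap over all genes, of which 39.2% passed with PFOS, was not counted, so nothing is read from this. The DMSO and PFOS courses share no library, but both rest on 1 estimate of the spread from all 12 libraries. With F-53B, whose libraries helped choose the members, 3 members lay past the threshold as higher over time (BNIP3L, ADM and KDM3A) and 5 as lower (SLC2A1, SLC16A3, HK2, PFKP and PFKFB3), where 30% of all genes lay past it. It is given as a description. This last count was 3 without day 8 F-53B replicate 2 and 13 without day 12 F-53B replicate 2.

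**Figure D5:**
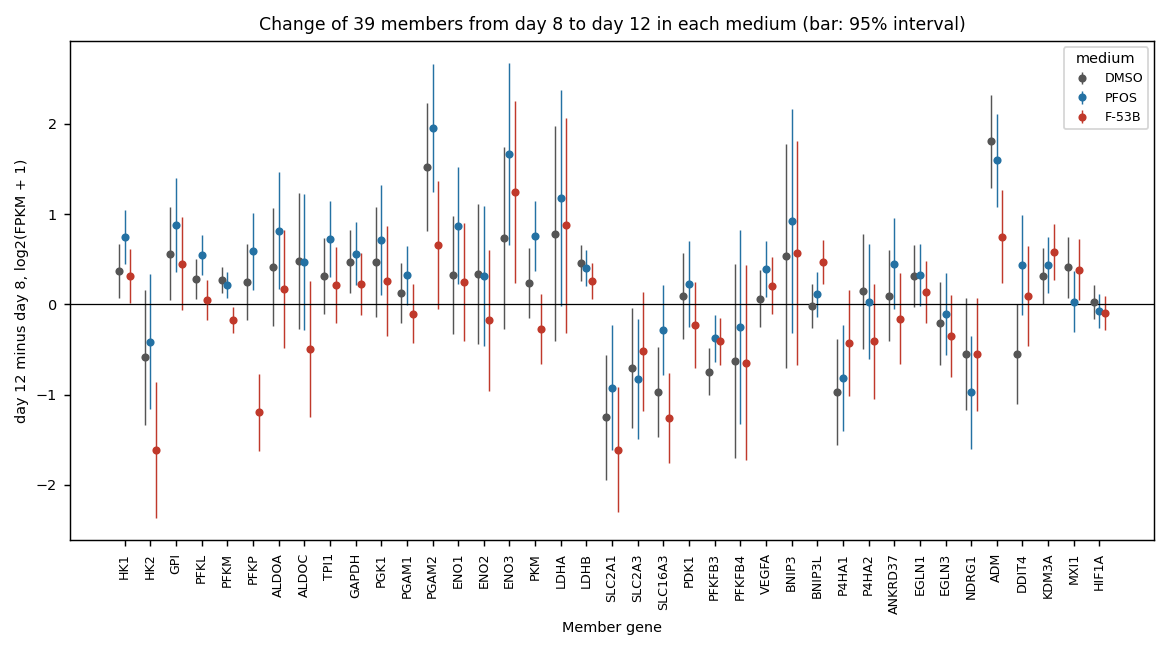
Change from day 8 to day 12 of 39 members (horizontal axis) on the log2(FPKM + 1) scale (vertical axis) with DMSO (grey), PFOS (blue) and F-53B (red), with 95% intervals from the fit to all 12 libraries. PGAM2 and ADM lie above 0 with DMSO and PFOS, SLC2A1 and PFKFB3 lie below 0 in all 3 media, and PFKP lies below 0 with F-53B at -1.20.

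F-53B and PFOS were given at the same dose of 60 µM and collected on the same days, so their libraries may be compared directly. The difference F-53B minus PFOS was estimated for 39 members at 2 days. F-53B libraries helped choose the members, so 95% intervals not corrected for the number of genes are given without p-values. The counts are a description and nothing is read from them. At day 8 the interval lay below 0 for 31 members, where it did for 21.7% of all genes, and held 0 for 8: SLC2A1, HK2, PFKL, PFKP, PFKFB3, HIF1A, P4HA2 and NDRG1. At day 12 the interval was below 0 for 32, where it was for 27.2% of all genes, and held 0 for 7: SLC2A1, PFKFB3, HIF1A, BNIP3L, P4HA1, P4HA2 and NDRG1. No interval lay above 0. The median difference was -0.85 at day 8 and -1.40 at day 12, beside -0.01 over all genes on both days.

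On the log2(FPKM + 1) scale the largest differences at day 8 were those of LDHA (-2.52, interval -3.71 to -1.33), ENO3 (-2.46, interval -3.47 to -1.45) and BNIP3 (-2.42, interval -3.66 to -1.18). At day 12 they were ENO3 (-2.88, interval -3.89 to -1.87), LDHA (-2.82, interval -4.02 to -1.63) and BNIP3 (-2.77, interval -4.01 to -1.53). By ratio of mean FPKM, 2 low genes differed more. These were ADM at day 8 (0.195 with F-53B, 1.39 with PFOS) and ANKRD37 at day 12 (0.27 and 2.85). HIF1A differed little between the compounds, by -0.07 (interval -0.26 to 0.12) at day 8 and -0.09 (interval -0.28 to 0.09) at day 12. For PFKFB3 the differences were 0.06 (interval -0.20 to 0.32) and 0.03 (interval -0.23 to 0.29). DDIT4 was lower with F-53B than with PFOS at day 12 by 1.03 (log2 difference -1.03, interval -1.58 to -0.47). An interval that holds 0 does not show that the compounds act alike.

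Other genes of these pathways, from lists that share no gene with the 40 members, are given for context. Of all genes tested, 39.2% passed over time with PFOS and 37.7% with DMSO. Against DMSO, 44% passed with F-53B at day 8 and 56.2% at day 12, and 6.77% and 12.3% with PFOS. The counts of these lists are a description beside those shares. Of 24 genes of pyruvate dehydrogenase and the citric acid cycle, 14 rose and 1 fell over time with PFOS, and 15 rose and 1 fell with DMSO. Among them MDH1, a malate dehydrogenase, rose by 1.12 (SE 0.20, adjusted p = 0.00163 in limma) and PDHA1, a pyruvate dehydrogenase subunit, by 0.61 (SE 0.13, adjusted p = 0.00298) with PFOS. Over time with DMSO they also rose, by 1.06 (SE 0.20, adjusted p = 0.00223 in limma) and 0.57 (SE 0.13, adjusted p = 0.00468). Of 7 genes of the pentose phosphate pathway, which branches from glucose 6-phosphate, 1 rose and 3 fell over time with PFOS. TKT, transketolase, fell by 1.24 with PFOS (SE 0.08, adjusted p = 1.19e-06). It also fell over time with DMSO (log2 change -1.58, SE 0.08, adjusted p = 1.66e-07 in limma). With F-53B against DMSO, 0 of these 7 genes passed at day 8 (1 with an unadjusted p under 0.05 in limma) and 2 at day 12, beside 19 and 23 of the 24 citric acid cycle genes, of which 18 and 21 were lower.

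Of 32 other hypoxia targets tested, 2 rose and 3 fell with PFOS at day 8, where 6.77% of all genes passed. At day 12, 3 rose and 3 fell, where 12.3% of all genes passed. IGFBP3, which binds insulin-like growth factors, rose at both days, by 1.08 (SE 0.16, adjusted p = 0.00315 in limma) and 0.59 (SE 0.16, adjusted p = 0.0329). LOX, which cross-links collagen, rose over time with PFOS by 1.08 (SE 0.13, adjusted p = 9.12e-05). It also rose over time with DMSO, by 1.52 (SE 0.13, adjusted p = 6.74e-06 in limma). With F-53B against DMSO, 17 of these 32 passed as lower and 4 as higher at day 8, and 11 and 6 at day 12. The medians were -0.55 and -0.32, and 44% and 56.2% of all genes passed in either direction. The 12 other HIF subunits and regulators had medians of 0.06 and 0.17 with F-53B. Among them HIF3A, a HIF subunit, rose over time with PFOS by 0.83 (SE 0.10, adjusted p = 8.08e-05) and CITED2, which competes with HIF for its coactivator, by 0.69 (SE 0.11, adjusted p = 0.000404). With DMSO both rose over time too, by 0.52 (SE 0.10, adjusted p = 0.00188 in limma) and 0.36 (SE 0.11, adjusted p = 0.0193).

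Among 9 other glycolytic enzymes and isoenzymes tested, none passed with PFOS against DMSO at either day (4 and 0 with an unadjusted p under 0.05 in limma). PGM1, which links glycogen and glucose 6-phosphate, rose over time with PFOS by 0.94 (SE 0.21, adjusted p = 0.00669). With DMSO its change over time was 0.31 (SE 0.21, adjusted p = 0.278 in limma) and did not pass. Of 11 other carriers of glucose and monocarboxylates, 1 fell with PFOS at each day. SLC16A1, the lactate carrier MCT1, fell with PFOS at day 12 by 0.46 (SE 0.08, adjusted p = 0.0034) and over time with PFOS by 0.68 (SE 0.08, adjusted p = 6.14e-05). It also fell over time with DMSO (log2 change -0.48, SE 0.08, adjusted p = 0.000663 in limma). MPC1, a subunit of the mitochondrial pyruvate carrier, rose over time with PFOS by 0.79 (SE 0.10, adjusted p = 0.000154). It also rose over time with DMSO, by 0.63 (SE 0.10, adjusted p = 0.000694 in limma). Of 14 genes of gluconeogenesis and glycogen, 1 fell with PFOS at day 8, PYGM, the muscle glycogen phosphorylase, by 0.78 (SE 0.15, adjusted p = 0.0123), and 1 at day 12. Over time with PFOS, 7 of the 14 rose and 1 fell, where 39.2% of all genes passed.

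Markers of other cells were listed beside the members. Of all genes tested, 44% and 56.2% passed in either direction with F-53B at day 8 and day 12, and 6.77% and 12.3% with PFOS. Epicardial and mesothelial markers passed as higher with F-53B in 8 of 10 genes at day 8 and 9 of 10 at day 12, and with PFOS in 3 and 7 of 10. At day 8 they held 0.155% and 0.125% of summed FPKM in the DMSO libraries, 0.269% and 0.287% in the F-53B libraries and 0.168% and 0.145% in the PFOS libraries. The day 12 shares were 0.0540% and 0.0531%, 0.195% and 0.262%, and 0.0902% and 0.0760%. Cycling-cell markers passed as higher with F-53B in 4 of 8 genes at day 8, and at day 12 none passed as higher and 1 as lower. Endoderm and hepatic markers passed as lower with F-53B in 7 of 10 genes at day 8 (1 higher) and 10 of 10 at day 12, and with PFOS in 3 and 7 of 10. Endothelial markers passed as lower with F-53B in 6 of 8 genes on both days (1 higher at day 12), and with PFOS in 4 and 1 of 8. Fibroblast and smooth muscle markers passed as higher with F-53B in 6 and 7 of 10 genes and as lower in 4 and 2. Markers of blood (HBG1, HBZ and SPI1), of the neural lineage (SOX1, PAX6, SOX2 and ELAVL4), VWF and SOX17 stayed under 1 FPKM in all libraries. The part of these cell types in the members' levels was not tested.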

How the data were processed

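RNA-seq of 12 libraries was used as deposited. The authors' values are FPKM per gene, per the file headers, with 2 decimals. The submitters' processing notes name HISAT, Bowtie2, RSEM and build GRCh38 (patch p11), and versions and order are not given in the sources used here. Between 8 and 10 broken lines per library were skipped. Values entered as log2(FPKM + 1), which understates changes of low genes, without further scaling. The 14080 genes that reached 1 FPKM in 2 libraries or more were fitted in 1 group-means model of all 12 libraries with limma 3.58.1 in R 4.3.3 (mean-variance trend, robust empirical Bayes). P-values are two-sided and Benjamini-Hochberg adjusted over all genes tested, with a threshold of 0.05. "Rose", "fell" and "passed" refer to that threshold. Folds are ratios of mean FPKM. The fit was tested on simulated data. The members and lists were chosen with earlier results of these data known. Full values are given for 14 preset members and, per comparison, up to 5 called members with the largest change and a mean of at least 5 FPKM. Other members printed with library values (such as HK1, GAPDH, PFKFB4 and BNIP3L) were chosen after their values were seen. Related genes were up to 2 per list, and some are not reported here. Locations are from GENCODE 29, joined by gene ID and symbol for 40 of 40 members. Alternatives were pseudocounts of 0.1 and 5, filters, scalings, moderation, compared libraries only, a replicate block, and each library left out.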

Additional observations from a re-analysis of the deposited data

Results flagged for a closer look

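PFKM, the muscle phosphofructokinase, and PFKP, the platelet form, are given here for their F-53B effects at day 12 and day 8. Of the 39 members they were the pair past the threshold for a difference between days. The share of all genes past it is not given here, and nothing is read from this count. F-53B and DMSO libraries helped choose the members, so this is a description and not independent evidence. The difference of the log2 changes was -0.45 (SE 0.09) for PFKM and -1.44 (SE 0.27) for PFKP, both lower relative to DMSO at day 12. BNIP3L is given because both F-53B libraries lay below both DMSO libraries at day 8 and above both at day 12, a difference of 0.49 (SE 0.16) that did not pass the threshold.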

How the results depend on the processing

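Members past the test with PFOS at day 8 numbered 0, and 1 with a pseudocount of 5, with libraries scaled to equal totals, by median of ratios or to totals without cardiomyocyte markers. Leaving out 1 library gave 0 to 2. With PFOS at day 12 they numbered 2, but 4 with a pseudocount of 5, 7 with only the libraries compared and 0 with the replicate block, and 0 to 2 with 1 library left out. Leaving out 1 library gave totals of 5 to 18 members over time with PFOS, against 19 in the main fit. The totals were 5 to 13 with DMSO, against 10, and 3 to 13 with F-53B, against 8. Such a total counts every member past the threshold in that fit, including members not called in the main fit. For the PFOS effect between days, leaving out 1 library gave 0 to 2. The median of F-53B minus PFOS at day 12 was -1.40, and -1.15 with a pseudocount of 5, with -1.51 to -1.15 when 1 library was left out. The median F-53B effect at day 12 minus day 8 was -0.18, and -0.41 to 0.09 when 1 library was left out. It turned sign without DMSO day 8 replicate 2 (0.0874) and without F-53B day 12 replicate 2 (0.0148). The cause was not tested. The counts with F-53B against DMSO stayed within 1.5 times their value under the alternatives run.

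The labels do not say whether replicate numbers pair the libraries. Over 15 pairs of groups, deviations correlated across genes with r from -0.378 to 0.186, above 0.1 in 3. With 2 libraries a group, these correlations cannot exclude a pairing. With a replicate block, 15 of the 19 PFOS time-course calls, 10 of 10 with DMSO and 0 of 2 with PFOS at day 12 remained. FPKM give no depth, so counting error is unknown, and 2 libraries a group limit every estimate. Where 1 library was left out, the lone library was assumed to vary like the other groups.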
